A study of Mus musculus with 3 samples.

Results

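The Fc gamma receptor group comprised 6 genes, namely the activating receptors Fcgr1, Fcgr3 and Fcgr4, the inhibitory receptor Fcgr2b, the signalling chain Fcer1g and the kinase Syk. They were chosen by symbol, and each of the 6 had 1 probe set with a single gene symbol, among 19938 genes with such a probe set. The group was put together because Fcgr1 is one of the few genes lower with ANGPTL4 than with PBS, so that difference is a description of how the group was chosen. All 6 genes lay above the expression floor on all 3 arrays, the floor being the median of the probe sets with a single gene symbol on the same array (log2 values of 4.98 to 5.00).

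Transcripts were measured in thioglycollate-elicited peritoneal macrophages of male Angptl4-/- mice of the C57Bl/6J strain, 3 days after 4% thioglycollate; their age is not stated in the labels. Exposure lasted 6 h and began after 2 days of culture, and the cells of all 3 groups lacked Angptl4. The first group received PBS. The second received intralipid, an emulsion of triglyceride droplets, at 0.5 mM triglyceride. The third received the same intralipid with recombinant mouse ANGPTL4 at 2.5 µg/mL, added 1.5 h beforehand. ANGPTL4 is a secreted protein that inhibits lipoprotein lipase. Each group was 1 array hybridised with RNA pooled from 3 samples, so a log2 difference between arrays has no error and no test could be run; "higher" and "lower" are statements on single arrays. The number of arrays limits the precision. In cultures measured in bulk, fewer cells of a type and less RNA per cell cannot be told apart.

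Fc gamma receptors bind the constant part of IgG and let macrophages take up antibody-coated particles and respond to immune complexes. The activating receptors carry no signalling motif of their own in the mouse and depend on the chain encoded by Fcer1g, whose tyrosine motif (ITAM) is phosphorylated by Src family kinases and then recruits Syk. Fcgr2b, the inhibitory receptor, carries an inhibitory tyrosine motif (ITIM) that recruits the phosphatase SHIP1, encoded by Inpp5d. Fcgr1 encodes the high-affinity receptor (CD64) and is a classical interferon gamma target gene.

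Among the activating receptors, Fcgr1 (probe set 10500335) measured 9.54 on the log2 scale for PBS, 9.07 for intralipid and 8.53 for the third group (called the ANGPTL4 array). It was highest on the PBS array and lowest with ANGPTL4, with the intralipid array in the middle. It was 1.39-fold lower with intralipid than with PBS (log2 difference of -0.48) and 1.45-fold lower again on the ANGPTL4 array than on the intralipid array (-0.53). Against PBS, the array with ANGPTL4 was 2.01-fold lower (-1.01), the contrast that put the gene on the list. The first 2 differences add up to that of this contrast, so they are not separate from the choice. Many other genes matched each of the first 2 differences. Of 10018 genes above the floor on either array, 14.7% differed at least as much between intralipid and PBS, and 15.1% of 10025 did so between the ANGPTL4 array and the intralipid array. Over the 1000 genes of nearest mean level, the robust SD of the log2 difference (from the central 68% of genes) was 0.27 and 0.31 for these contrasts. It was 0.13 for the ANGPTL4 array against PBS. This is a spread over genes and no measure of the error between cultures.

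The threshold of 2-fold divides Fcgr1 from its neighbours only narrowly. In the order of the difference between the ANGPTL4 array and PBS, Fcgr1 was number 4 from the lowest of 9960 genes. Just inside the threshold beside it lay Zdhhc14, which encodes a palmitoyltransferase, 2.10-fold lower. Just outside lay Thbs1, the gene for the matrix protein thrombospondin 1, at 1.91-fold, and Dio2, for a deiodinase of thyroid hormone, at 1.89-fold. Thbs1 had log2 values of 10.88, 12.97 and 9.95 with PBS, intralipid and ANGPTL4. It was highest with intralipid, and so were Zdhhc14 and Dio2. Slc46a3, the lowest gene in this order, had 7.70, 6.79 and 6.27 and so shared the order of the arrays seen for Fcgr1. These genes were named after their values were seen.

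Fcgr4 (probe set 10351509), an activating receptor for IgG2a and IgG2b, was listed with the same log2 value on the 3 arrays, 8.91. Identical values were frequent in the deposited table, since 14722 of 35556 probe sets (41.4%) held 1 value on all 3 arrays. Among the genes above the floor on at least 1 array, 2507 besides Fcgr4 did so. For this gene the table therefore shows no difference, and how small a difference it could have shown was not tested.

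Fcgr3 (probe set 10360040), the low-affinity activating receptor (CD16), measured 9.44 on the log2 scale for PBS, 9.23 for intralipid and 9.44 for ANGPTL4, the values with PBS and ANGPTL4 being identical. It was thus 1.15-fold lower on the intralipid array than on either other array. A difference of this size was common, as 34.3% of genes differed at least as much between intralipid and PBS. Of the activating receptors, Fcgr1 alone had its lowest value with ANGPTL4. Nothing is read from this, because Fcgr1 was chosen for that low value and the identical values of Fcgr4 give no order.

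The inhibitory receptor Fcgr2b (probe set 10360028) measured 9.24 on the log2 scale for PBS, 9.03 for intralipid and 9.53 for ANGPTL4. Its highest array was the one on which Fcgr1 was lowest. It was 1.16-fold lower with intralipid than with PBS (-0.21), 1.41-fold higher on the ANGPTL4 array than on the intralipid array (0.50) and 1.22-fold higher with ANGPTL4 than with PBS (0.29). The last difference was larger than the robust SD of 0.14 over genes of like level, and 9.38% of 9960 genes differed at least as much. The gap between the log2 differences of Fcgr2b and Fcgr1 was 0.27 for intralipid against PBS, 1.03 for ANGPTL4 against intralipid and 1.30 for ANGPTL4 against PBS. On the linear scale, the ratio of Fcgr2b to Fcgr1 was 2.46-fold higher with ANGPTL4 than with PBS. Most of that gap is the Fcgr1 difference of -1.01, for which the group was chosen, so nothing is read from the ratio. Fcgr2b, Fcgr3 and Fcgr4 are closely related genes, and whether their probes also bind transcripts of the others was not tested.

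Fcer1g (probe set 10360070) had log2 values of 11.36, 11.02 and 11.49 with PBS, intralipid and ANGPTL4. Its order over the arrays was that of Fcgr2b, with intralipid lowest and ANGPTL4 highest. The gene was 1.26-fold lower with intralipid than with PBS, 1.39-fold higher on the ANGPTL4 array than on the intralipid array and 1.10-fold higher with ANGPTL4 than with PBS. The last value (0.13 on the log2 scale) was close to the robust SD over genes of like level, 0.12. The chain that Fcgr1 needs for signalling was thus not lower with ANGPTL4 on these arrays. Fcgr1 itself was lower there, which is how it was chosen.

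Syk (probe set 10405216) took a different course, with log2 values of 9.45, 10.08 and 10.03 in the same order. Both arrays with intralipid lay above PBS and close to each other. The gene was 1.55-fold higher with intralipid (0.63) and 1.50-fold higher with intralipid plus ANGPTL4 (0.59) than with PBS, and 1.03-fold lower on the ANGPTL4 array than on the intralipid array. Of all genes compared, 9.58% differed at least as much from PBS with intralipid and 2.87% with ANGPTL4. Both contrasts share the PBS array, so they are not separate measurements of a difference from PBS.

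**Figure D1:**
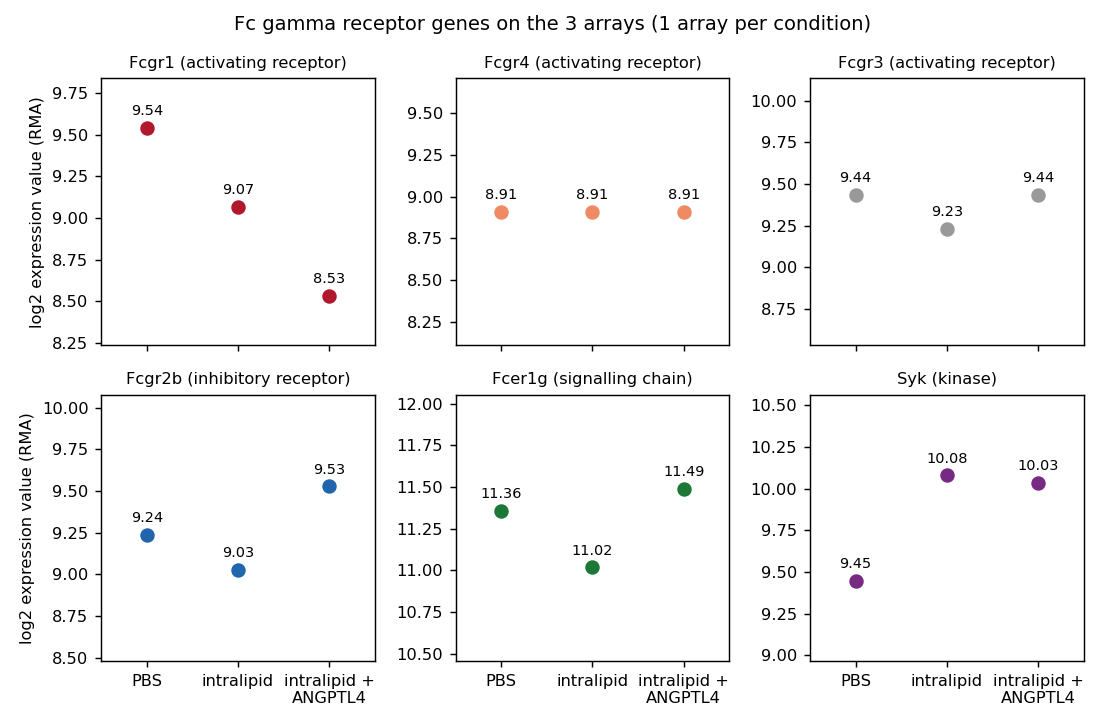
Log2 expression values (RMA) of the 6 genes on the 3 arrays, 1 point per array, with the same span of the vertical axis in each panel and no error because each condition had 1 array. Fcgr1 goes from 9.54 with PBS to 8.53 with ANGPTL4, Fcgr2b is highest with ANGPTL4 at 9.53, and Fcgr4 stays at 8.91.

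Counted over the 6 genes, intralipid against PBS gave 4 lower, 1 higher and 1 identical, with a median log2 difference of -0.21. Among all 10018 genes compared, 44.5% were lower, 23.5% higher and 32% identical, and the median was 0.00. A share of lower genes above that of higher ones was thus found in the whole table as well. Of the 6, 0 reached 2-fold in either direction, and the share over all genes was 2.52% upward and 1.33% downward. Syk alone passed 1.5-fold, upward, where the share was 5.08% upward and 5.59% downward.

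With ANGPTL4 against intralipid alone, 3 of the 6 were higher (Fcgr2b, Fcer1g and Fcgr3), 2 lower (Fcgr1 and Syk) and 1 identical, with a median of 0.10 against 0.00 over all genes. Over all genes, 46.5% were higher, 23.1% lower and 30.5% identical. Of the 6, 0 reached 2-fold, where the share over all genes was 2.53% upward and 2.3% downward, and 0 reached 1.5-fold, where it was 8.28% and 4.97%. With ANGPTL4 against PBS, 3 were higher, 1 lower and 2 identical, with a median of 0.07 against 0.00 over all genes. Over all genes, 35.5% were higher, 24.5% lower and 40.1% identical. Fcgr1 was the 1 member past 2-fold, downward, and the share over all genes was 0.0402% downward and 0.843% upward, from which nothing is read because this contrast chose the gene. At 1.5-fold there were 2 members, Fcgr1 downward (0.532% of all genes) and Syk upward (2.37%).

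**Figure D2:**
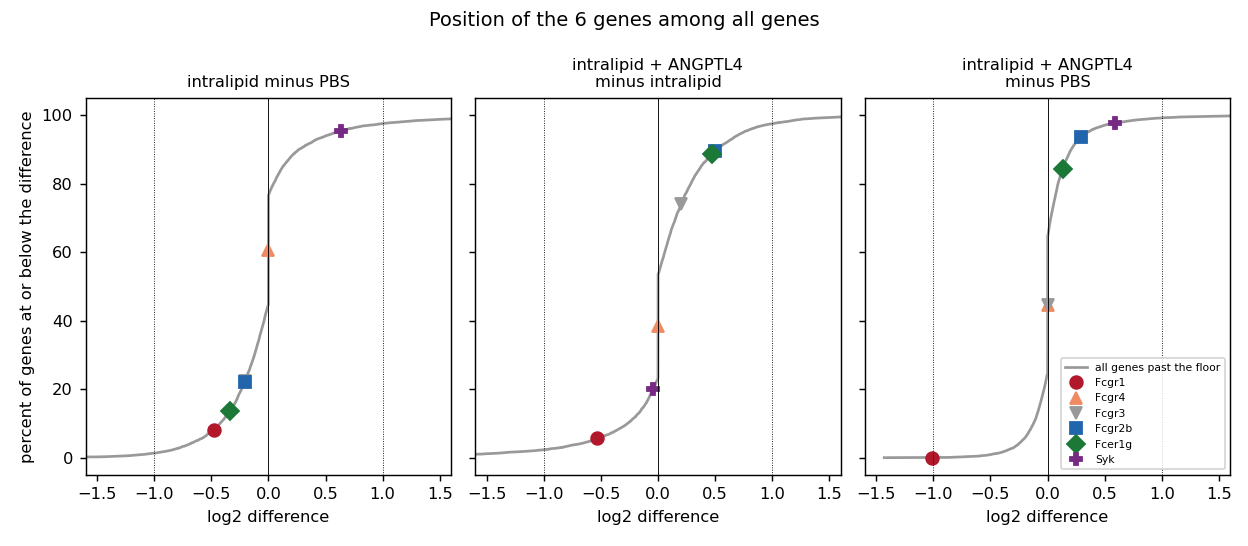
Cumulative distribution of the log2 differences over all genes above the floor on either array (grey line, percent of genes on the vertical axis), with the 6 genes as coloured marks and dotted lines at 2-fold. Fcgr1 lies on the left of every panel and reaches the 2-fold line against PBS with ANGPTL4, the contrast that chose it. The other 2 contrasts each share an array with that one, so nothing is read from the place of Fcgr1. Syk lies on the right in both contrasts with PBS. The mark of Fcgr3 is covered by that of Fcgr2b for intralipid minus PBS, where their differences are -0.20 and -0.21.

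Genes with a pattern like that of each member were sought over the 3 arrays, by the Euclidean distance of their 2 log2 differences from PBS among the 10056 other genes above the floor on at least 1 array. Fcgr1 had 0 genes within a distance of 0.1. One of the 2 differences is the one that chose Fcgr1 as extreme, so few genes could lie near it and its distances are not set against those of the other members. The nearest were St3gal5, which encodes a sialyltransferase of ganglioside synthesis (distance 0.21, differences of -0.62 with intralipid and -0.86 with ANGPTL4), Socs6, of the suppressor of cytokine signalling family (0.23), and Rasgrp3, a Ras exchange factor (0.28). Pbld2 and Gask1b followed at 0.35 each. Each of these 5 was lower on the ANGPTL4 array than on the intralipid array and lower on the intralipid array than with PBS. Genes picked for nearness to Fcgr1 at these distances had to share that order, so nothing is read from it.

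Within a distance of 0.1 there were 90 genes for Fcgr2b, with Bysl, Jpt2, Crlf3, Naa16 and Ormdl2 nearest, and 226 for Fcer1g, with Ccdc167, Tram2, Ywhab, Cyld and Pfkl nearest. For Fcgr3 there were 958, with Vezf1, 4930402H24Rik, Trim14, Atpsckmt and Tab1 nearest. Syk had 2, Ppp4r2 (a phosphatase subunit, distance 0.05) and Sqstm1 (the autophagy adaptor p62, 0.10), followed by Gm10863, Naip2 and Vcam1. With 3 arrays this likeness rests on 2 differences that share the PBS array.

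The start sites of Fcgr1, Fcgr4 and Fcgr2b are shown because these receptors had the lowest, an identical and the highest value with ANGPTL4 relative to PBS. Sequences are from RefSeq on GRCm38.p6, from 250 bases before to 50 bases after the annotated start, at chr3:96293920-96294219 (minus strand), chr1:171018676-171018975 (plus strand) and chr1:170976022-170976321 (minus strand). Capitals mark matches, on either strand, to TTCNNNGAA (a gamma-activated site, bound by STAT factors), GAGGAA (the core of sites of the myeloid factor PU.1) or the interferon-stimulated response element (GAAA and GAAA with 2 free bases between them).
Fcgr1: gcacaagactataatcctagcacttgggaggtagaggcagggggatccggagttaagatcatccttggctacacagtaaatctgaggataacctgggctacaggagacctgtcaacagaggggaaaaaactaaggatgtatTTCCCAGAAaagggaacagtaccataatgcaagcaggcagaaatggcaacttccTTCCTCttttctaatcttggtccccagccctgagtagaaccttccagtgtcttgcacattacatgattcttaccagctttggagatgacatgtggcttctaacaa
Fcgr4: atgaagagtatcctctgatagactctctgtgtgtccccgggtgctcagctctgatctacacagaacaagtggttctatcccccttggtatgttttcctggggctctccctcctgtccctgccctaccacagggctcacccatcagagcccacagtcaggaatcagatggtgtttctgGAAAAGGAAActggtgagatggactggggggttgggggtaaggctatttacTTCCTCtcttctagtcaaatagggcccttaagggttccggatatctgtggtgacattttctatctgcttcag
Fcgr2b: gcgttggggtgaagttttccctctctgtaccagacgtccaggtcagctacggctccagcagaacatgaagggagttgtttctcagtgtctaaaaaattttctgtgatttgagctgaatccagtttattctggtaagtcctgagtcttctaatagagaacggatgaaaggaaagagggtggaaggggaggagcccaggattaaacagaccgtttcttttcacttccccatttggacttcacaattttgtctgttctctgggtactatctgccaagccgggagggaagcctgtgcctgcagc

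The Fcgr1 window held 1 match to TTCNNNGAA, at positions -109 to -101 from the start, and 1 to GAGGAA, at -55 to -50. The Fcgr4 window held 1 match to the interferon-stimulated element and 1 to GAGGAA, which did not overlap, and the Fcgr2b window held 0 matches to any of the 3 motifs. GAGGAA also matched once in both Fcgr3 windows and in the second Syk window, and the windows of Fcer1g and of the first Syk start had 0 matches. Of 32544 promoter windows of that length, 8.33% held TTCNNNGAA, 28.1% GAGGAA and 3.45% the interferon-stimulated element. Matches to GAGGAA are thus frequent, and these letters show neither binding nor activity on the arrays.

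Genes of the interferon gamma response were set beside Fcgr1, as this cytokine is its classical inducer. Of 13 measured genes on that list, 7 lay above the floor, and with ANGPTL4 against PBS 5 were higher, 1 lower and 1 identical. Their median log2 difference was 0.08. Over all genes, 35.5% were higher, 24.5% lower and 40.1% identical. The guanylate-binding protein gene Gbp3 had log2 values of 6.41, 6.24 and 7.06 on the arrays in the order PBS, intralipid, ANGPTL4, and Irgm1, an immunity-related GTPase, 6.87, 6.26 and 7.11. Their highest array was the one on which Fcgr1 was lowest, the low value for which Fcgr1 was chosen. Psmb9, an immunoproteasome subunit, was the 1 lower gene, at 7.71, 7.07 and 7.62. The chemokine gene Cxcl10 was 2.07-fold higher with intralipid than with PBS and was the 1 listed gene called in any contrast. The share over all genes was 2.52% upward for intralipid against PBS. Cxcl9, Ciita, Nos2, Ido1, Iigp1 and Gbp5 lay below the floor on all 3 arrays.

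Regulators of Fc receptor expression had 17 measured genes, all above the floor. Spi1, which encodes PU.1, had log2 values of 9.70, 9.64 and 9.95, and Irf8, another myeloid transcription factor, 8.73, 8.36 and 8.37. Irf8 was thus lower on both arrays with intralipid. Irf1, a transcription factor induced by interferons, had 6.69, 5.58 and 7.69, which is 2.16-fold lower with intralipid than with PBS and 4.34-fold higher with ANGPTL4 than with intralipid. Cebpb, a transcription factor of myeloid and inflammatory genes, went the other way, with 8.57, 10.39 and 9.43, and was 3.52-fold higher with intralipid than with PBS. These were the 2 of 17 called in that contrast, 1 in each direction, where the share over all genes was 2.52% upward and 1.33% downward. For Irf1, averaging its probe sets brought the log2 differences from -1.11 to -0.56 and from 2.12 to 1.06. Ifngr1 and Ifngr2, the chains of the interferon gamma receptor, differed by at most 0.11 between arrays. With ANGPTL4 against intralipid, Irf1, the kinase gene Jak2 (2.37-fold) and the receptor gene Tgfbr1 (2.15-fold) were past 2-fold upward, 3 of 17 where the share over all genes was 2.53%.

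Receptors that signal through the same type of motif did not take one course. Clec4e (Mincle), a C-type lectin that pairs with the Fcer1g chain, had log2 values of 8.29, 10.09 and 11.63 in that order. It was highest with ANGPTL4, 10.1-fold above PBS. Clec4d, which also pairs with that chain, had 11.63, 11.71 and 12.02, and Clec4n (Dectin-2) 6.28, 5.98 and 6.42. These 3 partner receptors thus did not share the order seen for Fcgr1, since each was highest with ANGPTL4. Fcgr1 was chosen for its low value there. Fcgr3 and Fcgr4, which also depend on the chain, took neither course. Fcgr3 had 9.44 with both PBS and ANGPTL4, and Fcgr4 had 8.91 on each array. Of the list of receptors and adaptors with such motifs, Clec7a (11.30, 11.45 and 11.31) and Cd300ld (10.34, 10.38 and 10.34) were highest with intralipid. Of its 10 genes compared between ANGPTL4 and PBS, 6 were higher, 1 lower and 3 identical. Over all genes, 35.5% were higher, 24.5% lower and 40.1% identical.

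The adaptor Tyrobp (DAP12), which carries the same kind of motif, was listed at 11.30 on all 3 arrays. Its partner Clec5a was 2.54-fold lower with intralipid than with PBS and 7.21-fold higher with ANGPTL4 than with intralipid. Trem1, another partner, had 3.55, 5.63 and 4.36, so that it passed the floor with intralipid only. Treml4 passed it with ANGPTL4 only (5.93). Clec9a, which has a motif of its own, passed it with intralipid only, at 5.00. Of the 12 genes above the floor on at least 1 array, 3 (Clec4e, Clec5a and Treml4) passed 2-fold upward with ANGPTL4 against PBS, out of 10 compared there, where the share over all genes was 0.843%.

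Other Fc receptor genes lay mostly below the floor. Of 12 measured, Trim21 and Fcrlb lay above the floor. Trim21, the cytosolic Fc receptor, had log2 values of 6.91, 6.19 and 7.16, while Fcrlb was listed at 6.06 on each array. The IgE receptor genes Fcer1a, Ms4a2 and Fcer2a lay between 2.44 and 2.95.

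Downstream of the receptors, the kinase genes of the Src and Tec families showed no 2-fold difference. Fgr, a Src family kinase of myeloid cells, had 8.56, 8.56 and 9.29, and Btk, a Tec family kinase, 7.59, 7.06 and 7.73. Both were highest with ANGPTL4. Fyn, with 7.20, 7.64 and 6.97, and Tec, with 9.15, 8.98 and 8.83, were lowest there. Of the 6 kinase genes compared, 3 were higher and 3 lower with ANGPTL4 than with PBS, where 35.5% of all genes were higher and 24.5% lower. Of the signalling intermediates, 27 of 28 measured genes lay above the floor, and 17 were lower and 7 higher with intralipid than with PBS, where 44.5% of all genes were lower and 23.5% higher. The exchange factor gene Vav1 had 9.50, 8.60 and 10.05, and the phospholipase gene Plcg2 8.05, 7.73 and 7.88. The kinase subunit Pik3cd was 2.27-fold lower with intralipid than with PBS. With ANGPTL4 against intralipid, 4 of 27 were at least 2-fold higher, namely Vav1 (2.72-fold), Pik3cg (2.97-fold), Sh3bp2 (2.14-fold) and Pik3cd (2.13-fold), and 0 at least 2-fold lower. The share over all genes was 2.53% upward and 2.3% downward. Malt1, a paracaspase of the CARD9 pathway, was 3.29-fold higher with intralipid than with PBS and stayed 2.21-fold above PBS with ANGPTL4.

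Inhibitory genes around Fcgr2b were compared between the ANGPTL4 and intralipid arrays. Of 25 compared, 20 were higher and 5 lower, with a median log2 difference of 0.40. The share over all genes was 46.5% higher and 23.1% lower. At least 2-fold higher were 6, Ptpn6, Ptprj, Clec4a2, Clec12a, Pilra and Siglece, where the share over all genes was 2.53%. Siglece was compared because it passed the floor on the ANGPTL4 array only. With intralipid against PBS, 15 of 24 were lower and 8 higher (median -0.19), where 44.5% of all genes were lower and 23.5% higher. With ANGPTL4 against PBS, 14 of 25 were higher and 10 lower (median 0.03), where 35.5% of all genes were higher and 24.5% lower. Ptpn6, which encodes the phosphatase SHP-1, had log2 values of 9.89, 8.23 and 10.20. It was 3.15-fold lower with intralipid than with PBS and 3.91-fold higher with ANGPTL4 than with intralipid. Inpp5d, whose product is the partner of Fcgr2b, had 9.71, 9.17 and 9.40, and so was highest with PBS. Pilra (2.48-fold) and Siglece, 2 of 25, also passed 2-fold upward with ANGPTL4 against PBS, where the share over all genes was 0.843%. Siglece went from 4.41 with PBS to 5.96 with ANGPTL4 and was compared there only through the ANGPTL4 array.

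**Figure D3:**
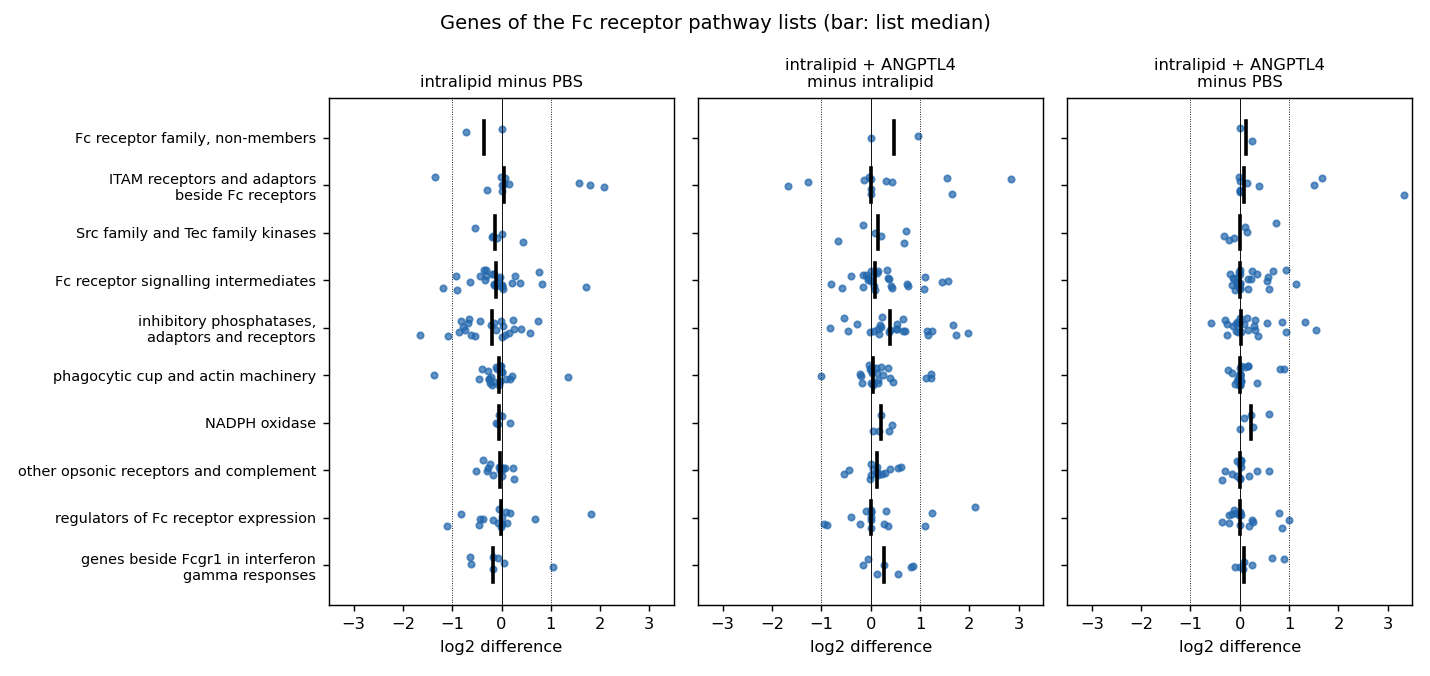
Log2 differences of the genes of the 10 pathway lists above the floor on either array of a contrast (1 point per gene, black bar at the list median, dotted lines at 2-fold). With ANGPTL4, the median of the inhibitory list is 0.40 against intralipid and 0.03 against PBS. The farthest point against PBS is Clec4e at 3.34.

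Of the phagocytic cup and actin genes, at the effector end of the pathway, 25 were compared, and with intralipid against PBS the median was -0.05, with 1 at least 2-fold higher (Pip5k1a, 2.55-fold) and 1 lower (Coro1a, 2.58-fold), where the share over all genes was 2.52% upward and 1.33% downward. With ANGPTL4 against intralipid, Coro1a, an actin-binding protein of leukocytes, Myo10, a myosin, and Vasp, an actin regulator, passed 2-fold upward (3 of 25) and Pip5k1a downward (1 of 25), where the share over all genes was 2.53% and 2.3%. Of 5 NADPH oxidase genes, all were higher with ANGPTL4 than with intralipid, by log2 differences from 0.05 (Rac2) to 0.44 (Ncf4), and 0 reached 2-fold. Over all genes, 46.5% were higher in that contrast. Other opsonic receptors and complement genes had 15 measured, with 0 at least 2-fold apart in any contrast, where the share over all genes was at most 2.53% in either direction. Itgam, one chain of complement receptor 3, differed by at most 0.02, and Itgb2, the other, had 12.35, 11.83 and 12.38.

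Taking each listed gene once, without the 6 receptors and signalling genes, 13 of 138 passed 2-fold between intralipid and PBS (7 higher, 6 lower), where the share over all genes was 2.52% higher and 1.33% lower. Between ANGPTL4 and intralipid it was 22 of 140 (19 higher, 3 lower), where it was 2.53% and 2.3%. Between ANGPTL4 and PBS it was 7 of 138 (7 higher, 0 lower), where it was 0.843% and 0.0402%. Of these 7, Treml4 and Siglece were compared only because they passed the floor on the ANGPTL4 array, where they were high. They were among the 19 higher than with intralipid for the same reason. Trem1 and Clec9a passed the floor on the intralipid array only, where they were high. Through that array alone they were among the 7 higher with intralipid and the 3 lower with ANGPTL4 than with intralipid. In the last contrast Irf1 (1.00) lay on the threshold, and below it under every other scaling tried. The medians were -0.06, 0.14 and 0.00, where the median over all genes was 0.00 in each contrast.

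Fcgr2b, Fcgr4, Fcgr3 and Fcer1g lie on mouse chromosome 1, and RefSeq places 7 protein-coding genes between Fcgr3 and Fcer1g. Of these, 6 were measured and 2 lay above the floor. Sdhc, a subunit of respiratory complex II, had log2 values of 9.45, 9.01 and 9.34, and Tomm40l, a mitochondrial outer membrane protein, 6.72, 6.32 and 6.72. Like Fcgr3, Fcgr2b and Fcer1g, both were lowest with intralipid. Fcgr4 and the flanking genes Fcrlb, Adamts4 and B4galt3, which also reached the floor, were identical on all 3 arrays. Over all genes, 44.5% were lower with intralipid than with PBS. Fcgr1 lies on chromosome 3 beside histone genes, and its measured neighbour H4c14 had 7.46, 8.64 and 7.29, highest with intralipid. Next to Syk on chromosome 13, Auh had 7.13, 7.80 and 6.91, so its value with ANGPTL4 lay below PBS whereas that of Syk did not.

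**Figure D4:**
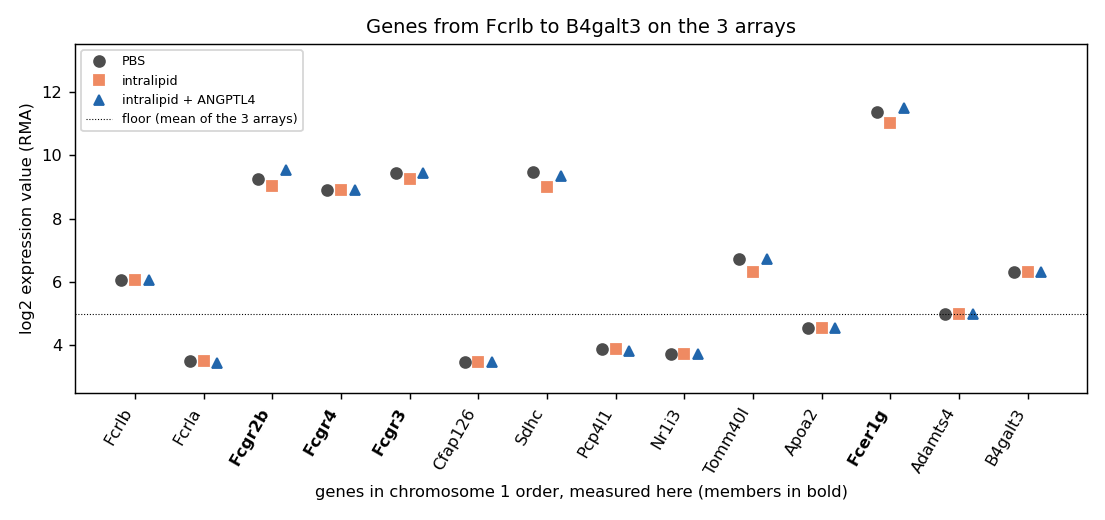
Log2 expression values (RMA) of the measured genes around the chromosome 1 receptor group, in gene order and not to distance, with 1 mark per array and the mean floor as a dotted line. The 4 members, Sdhc and Tomm40l stand above the floor, unlike Cfap126, Pcp4l1, Nr1i3 and Apoa2.

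The deleted gene Angptl4 was listed at 4.92 on each array, below the floor, and no wild-type array was analysed here. Macrophage markers other than Fcgr1 were above the floor in 9 of 10 cases, the exception being Cd163, and their summed level lay between 14.48 and 14.61 on the log2 scale. Single markers moved more than the sum, as Cd14 had 9.07, 11.17 and 10.34 (4.29-fold higher with intralipid and 2.40-fold with ANGPTL4 than with PBS) and Msr1 10.02, 9.36 and 10.56 (2.30-fold between the ANGPTL4 and intralipid arrays). NK and T cell markers had 0 of 11 and mast cell and basophil markers 0 of 8 above the floor on any array, with summed levels of 7.06 to 7.08 and 6.14 to 6.15. Neutrophil markers had 2 of 11 (S100a8 and Csf3r), with Ly6g, Elane and Mpo below the floor and a summed level of 8.66 to 8.78. Of 6 B cell markers, Cd22 and Blnk passed, while Ms4a1, Cd79a, Cd79b and Pax5 did not, at a summed level of 10.50 to 10.77. Eosinophil markers had 1 of 5 (Siglecf, summed level 7.64 to 7.80), dendritic cell markers 1 of 7 (Clec9a, with intralipid only, summed level 6.87 to 7.12), and fibroblast and mesothelial markers 6 of 9, at a summed level of 11.20 to 11.22. The part of these cells in the values of the receptors was not tested.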

How the data were processed

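The deposited table held log2 expression values for 35556 probe sets on 3 Affymetrix arrays, 1 per group, made by the authors with RMA (background correction, normalization between arrays, summary of probes) per the submitters' processing notes. The log2 scale was read from the values. Per the labels, RNA of 3 samples was pooled on each array. The version of RMA, filters, genome build and dates were not given in the sources used here. GEO's platform annotation gave 1 symbol to 21789 probe sets, several to 1621 and none to 12146. Single-symbol probe sets were used, the one with the highest mean per gene. Of 182 pathway symbols, 163 were analysed here. Values were not normalized further. A gene was called where 2 arrays differed at least 2-fold and the higher one reached the floor. As each group had 1 array, differences carry no test and no p-value. The members and lists were chosen with earlier results of these data known. The naming rule covered the 6 members, genes called in a list, the 2 farthest from 0 per list and contrast, the 5 nearest to each member in pattern and a few fixed genes; of the listed genes farthest from 0 but not called, some are given by counts only. The calling step was tested on simulated data, of which no result is given here. Promoter sequences matched all 6 members. Python 3.11.15, pandas 2.3.3 and R 4.3.3 with limma 3.58.1 were used, limma for quantile and cyclic loess alternatives. Other alternatives were thresholds of 1.5-fold and 3-fold, no floor, a floor at the 75th percentile, median-centred arrays and the mean of a gene's probe sets.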

Additional observations from a re-analysis of the deposited data

How the results depend on the processing

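The 18 log2 differences of the 6 genes moved by at most 0.05 under median centring, quantile normalization and cyclic loess. Those that were not 0 kept their sign. Those of 0, for Fcgr3 and Fcgr4, became small differences, such as -0.04 for Fcgr3 against PBS with ANGPTL4 under median centring. The mean of all probe sets of a gene could not move any of them, since each member had 1 probe set. Fcgr1 against PBS with ANGPTL4 ranged from -1.05 to -1.01 over the deposited values and these settings and stayed 2-fold lower. At 1.5-fold, the members called numbered 1 for intralipid against PBS and 2 for ANGPTL4 against PBS, and at 3-fold 0 for the latter. All genes called numbered 1069 at 1.5-fold and 137 at 3-fold for intralipid against PBS (385 at 2-fold), 1328 and 160 for ANGPTL4 against intralipid (485), and 289 and 25 for ANGPTL4 against PBS (88). Pathway genes called numbered 31 and 5 (13), 38 and 7 (22) and 20 and 2 (7) for the same contrasts, and 8 for intralipid against PBS with the floor at the 75th percentile. Irf1 against PBS with ANGPTL4 was 1.00 in the values as deposited and 0.97 with median centring, 0.96 with quantile normalization and 0.50 with the mean of its probe sets. No paired analysis was possible because each group had 1 array. Leaving out a replicate was not possible for the same reason.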
